A study of Mus musculus with 8 samples.

Results

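The 10 genes described belong to the circadian clock and its output: the activators Arntl (also called Bmal1), Clock and Npas2, the repressors Per1, Per2, Cry1 and Cry2, and the PAR bZIP factors Dbp, Tef and Hlf. They were chosen by gene symbol as 10 of the 55341 symbols in the count files, and all 10 were among the 17355 genes tested. Nuclear RNA was measured in sorted nuclei of GABAergic neurons, the inhibitory neurons of the cortex, from juvenile mice. A Cre-dependent reporter marked the nuclei, and the Cre driver line is not named in the labels. Both groups were hypothyroid, because their mothers had been given propylthiouracil (PTU), a blocker of thyroid hormone synthesis, during gestation. The PTU group (mice 9, 10, 11 and 12, n = 4) had no further treatment in the labels. The PTU+TH group (mice 13, 14, 15 and 16, n = 4) was injected intraperitoneally with thyroid hormone (TH), and brains were collected 24 h later. A group with normal thyroid hormone is not part of the comparison, the labels name no vehicle injection in the PTU group, and the hormone, its dose and the time of day of collection are not given in the sources used here.

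In the clock loop, a dimer of ARNTL with CLOCK or NPAS2 binds E-box sequences and turns on the Per and Cry genes, whose proteins then block that dimer. The same dimer acts on genes of the REV-ERB and ROR nuclear receptors, which repress and activate Arntl through a shared DNA element, and on Dbp. DBP, TEF and HLF bind a further element, the D-box, and pass the rhythm on to output genes. In the cortex the loop runs in most cell types, and levels of Per1, Per2, Dbp and Arntl move over the day. NPAS2 is a relative of CLOCK with high expression in forebrain neurons, and Per1 also responds to neuronal activity.

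Library totals ranged from 21.8 to 29.1 M counts with means of 24.0 ± 1.39 M for the PTU mice and 24.1 ± 3.37 M for the TH-injected mice (n = 4 each, ± SD; p = 1 by a two-sided exact permutation test, whose smallest possible p is 0.0286). The TH target genes Hr and Klf9 were called higher in PTU+TH (edgeR quasi-likelihood test, log2 fold changes 3.88 and 1.37). The GABAergic marker list summed to between 2366 and 2816 CPM (counts scaled to the TMM-adjusted library total) in PTU and between 2237 and 2470 CPM in PTU+TH, with Dlx1 and Dlx6, which lie inside other genes, listed at 0. Of the excitatory neuron, astrocyte, oligodendrocyte, microglia and endothelium lists, 0 genes were called and the summed levels of the groups overlapped in each list. The 8 excitatory markers summed to 276.9 to 319.6 CPM in the PTU mice and 247.4 to 330.7 CPM in the PTU+TH mice. Most of that sum was Camk2a, with group means of 227 CPM (PTU) and 213 CPM (PTU+TH). The mean log2 CPM over the list, in which each marker weighs the same, varied more between libraries. With PTU alone it ran from 2.38 (mouse 12) to 3.71 (mouse 9). After TH it ran from 2.65 (mouse 14) to 3.8 (mouse 15). The microglia list, with P2ry12 at 0, summed to 11.2 to 17.0 and 15.4 to 31.3 CPM, and 5 of its 6 tested genes had a positive log2 fold change. The endothelium list stood at 161.1 CPM in PTU mouse 10 against 33.7 to 54.3 CPM in the other PTU mice. PTU+TH mouse 15 was highest of the 8 libraries in the astrocyte list (380.8 CPM, the others 130.5 to 271.3), the oligodendrocyte list (193.4 CPM, the others 94.4 to 125.2) and the microglia list (31.3 CPM). It was also highest in the excitatory list (330.7 CPM, next 321.2) and in the immediate early genes (111.1 CPM, next 100.7). Without mouse 15, Arntl and Dbp were still called, at log2 fold changes of 0.52 and 1.07. Over all genes, the libraries of mice 9 and 10, 11 and 12, 13 and 14, and 15 and 16 were each closer to each other (chi-square per degree of freedom 8.38 to 18.6) than to the other pair of their group (16.4 to 72.6, with 29.7 the lowest in PTU). Y-linked genes had counts in 6 libraries and none in PTU+TH mice 15 and 16. As these are bulk libraries, fewer nuclei of a type and less RNA per nucleus cannot be told apart.

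The activator Arntl and the output factor Dbp rose after TH, and the repressors did not pass the test. Dbp rose 2.12-fold and Arntl 1.39-fold, while the interval for Clock, which encodes the partner of ARNTL, ran from a fold of 0.874 to 1.14. In the edgeR quasi-likelihood test at an adjusted p under 0.05, 2 of the 10 members were called higher and 0 lower, where 2.12% of all tested genes were called (1.49% higher and 0.634% lower). The same pair were the members with all 4 PTU+TH libraries above all 4 PTU libraries, a pattern shown by 8.71% of tested genes in either direction and 4.68% in this one. By unadjusted p, 3 of the 10 were under 0.05, against 12.8% of all tested genes. The median log2 fold change of the members was 0.11, beside -0.01 over all tested genes.

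**Figure D1:**
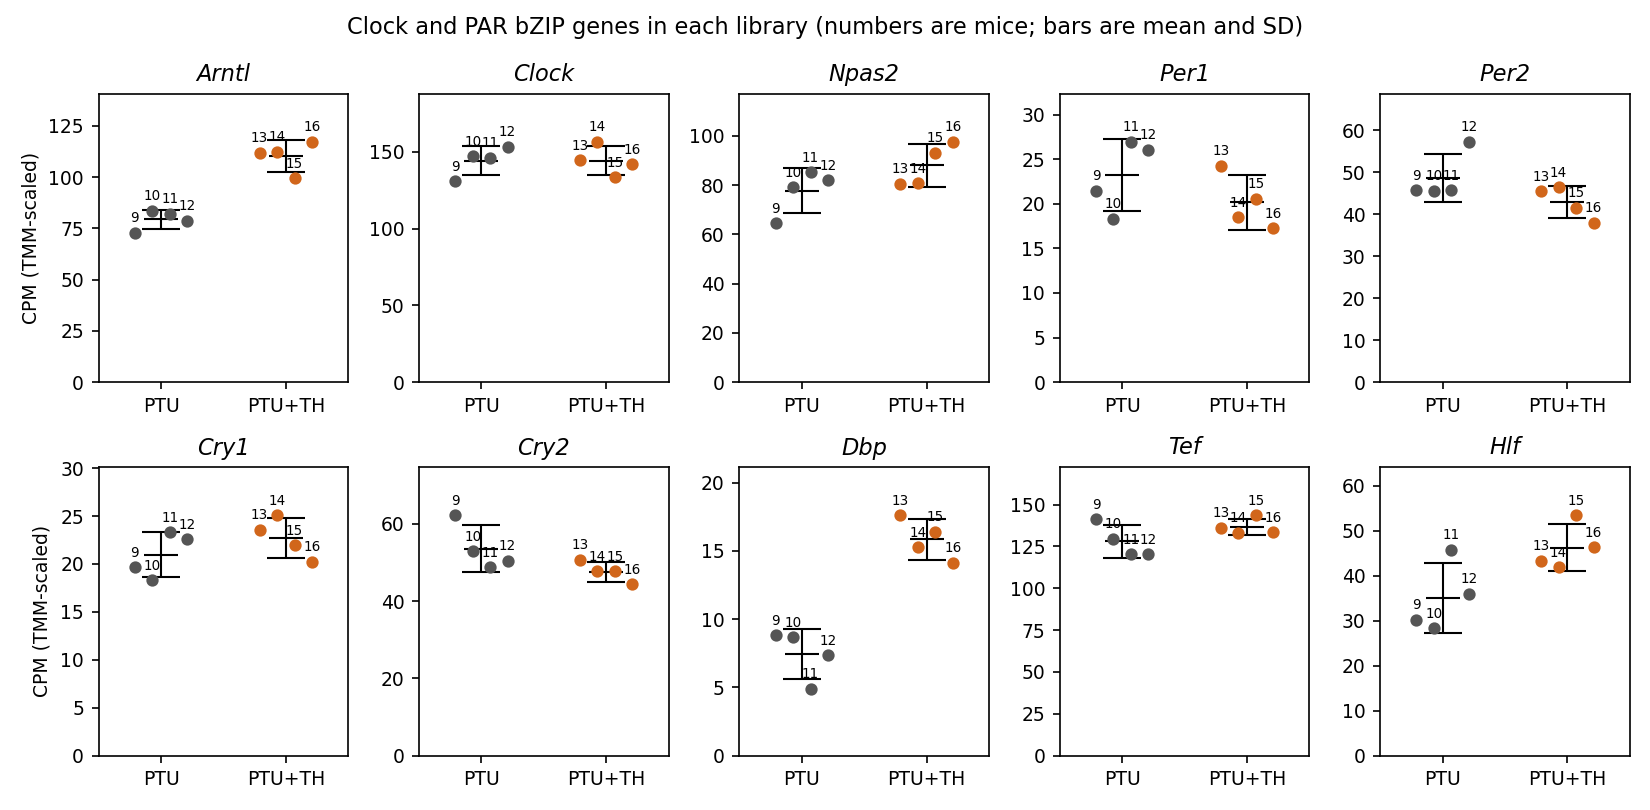
CPM of each member (y axis, from 0) in the 4 PTU and 4 PTU+TH libraries, with each point labelled by its mouse and bars for the mean and SD. The groups are apart for Arntl (72.9 to 83.6 against 99.4 to 117.3 CPM) and for Dbp (4.90 to 8.82 against 14.1 to 17.6 CPM), and overlap for the other 8 genes.

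Promoters of 4 members are shown because they hold, or lack, the elements through which the loop is wired. The windows run from 250 bases before to 50 after a RefSeq transcription start (GRCm38.p6), 5′ to 3′ on the strand of the gene, and windows were found for 9 of the 10 members (14 windows, not for Per2). Those of Arntl (chr7:113207261-113207560, plus strand) and Dbp (chr7:45704997-45705296, plus strand) belong to the called genes. Those of Per1 (chr11:69098699-69098998, plus strand) and Tef (chr15:81802423-81802722, plus strand) belong to genes that were not called and that hold an E-box. Capitals mark matches to the motifs searched on both strands.
Arntl: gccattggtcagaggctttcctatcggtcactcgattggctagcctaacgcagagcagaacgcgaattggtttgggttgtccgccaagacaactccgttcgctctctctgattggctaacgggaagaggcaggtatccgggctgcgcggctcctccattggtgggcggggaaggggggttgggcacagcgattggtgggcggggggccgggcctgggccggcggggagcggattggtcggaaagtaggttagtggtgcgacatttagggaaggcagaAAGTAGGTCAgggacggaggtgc
Dbp: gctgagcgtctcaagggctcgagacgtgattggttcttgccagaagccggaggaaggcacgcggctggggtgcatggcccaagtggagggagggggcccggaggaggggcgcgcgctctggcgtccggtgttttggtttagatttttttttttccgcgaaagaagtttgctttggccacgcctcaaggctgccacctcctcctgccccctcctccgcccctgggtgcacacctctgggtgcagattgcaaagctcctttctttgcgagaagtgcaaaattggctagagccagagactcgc
Per1: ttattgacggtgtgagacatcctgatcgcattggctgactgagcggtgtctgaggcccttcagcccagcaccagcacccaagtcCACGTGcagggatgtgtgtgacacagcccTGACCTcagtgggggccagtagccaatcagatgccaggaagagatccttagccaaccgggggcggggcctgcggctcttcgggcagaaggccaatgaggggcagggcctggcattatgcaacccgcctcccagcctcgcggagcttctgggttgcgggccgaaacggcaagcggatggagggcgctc
Tef: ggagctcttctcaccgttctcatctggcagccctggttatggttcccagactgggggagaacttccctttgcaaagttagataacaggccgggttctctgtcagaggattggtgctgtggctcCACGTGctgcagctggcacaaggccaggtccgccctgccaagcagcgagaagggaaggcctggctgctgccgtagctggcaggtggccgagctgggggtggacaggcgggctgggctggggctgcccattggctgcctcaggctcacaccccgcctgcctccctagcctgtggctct
The motifs were the E-box CACGTG, the cyclic AMP response element TGACGTCA, the nuclear receptor core motif AGGTCA, 2 forms of the REV-ERB and ROR element (AGGTCA, or GGGTCA, preceded by A, any 2 bases and T), 2 forms of the D-box (TTATGTAA and TTACGTAA) and the direct repeat of that motif spaced by any 4 bases. The core motif is contained in the first receptor element and in the direct repeat. Counting the start site as base 1, the Arntl window shown holds the receptor element at bases 28 to 37, a form found in 0.7% of 32851 mouse windows. The Per1 window shown holds an E-box and a core motif. A further Arntl window and a further Per1 window hold none of the motifs. The Tef window holds an E-box, as does a further Tef window and that of Cry1. An E-box is in 7.15% and a core motif in 16.3% of the mouse windows. The Hlf window holds the cyclic AMP response element, which is in 1.79% of windows, and 1 of the 3 Clock windows holds a core motif. The Dbp window holds none of these motifs, which says only that the letters are not in this window.

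Arntl (chromosome 7, 113207465 to 113314126, plus strand, GRCm38) encodes the activator that both CLOCK and NPAS2 need as a partner. It was at 72.9, 83.6, 82.2 and 78.7 CPM in PTU mice 9, 10, 11 and 12, and at 111.9, 112.4, 99.4 and 117.3 CPM in PTU+TH mice 13, 14, 15 and 16. Every PTU+TH library lay above every PTU library, and the lowest of them, mouse 15, was 15.7 CPM above the highest PTU library. The PTU mean of 79.4 ± 4.80 CPM compares with 110.2 ± 7.65 CPM in PTU+TH (n = 4 each, ± SD; adjusted p = 0.0109 by edgeR, log2 fold change 0.47 with SE 0.09). Arntl had 1662 to 3268 counts per library, and 97.8% of its body shares no base with another annotated gene. Its PTU+TH libraries with Y-linked counts, mice 13 and 14, were at 111.9 and 112.4 CPM. In the 6 libraries with Y-linked counts the log2 fold change was 0.50 with an edgeR adjusted p of 0.0829, and with the presence of Y-linked counts as a covariate it was 0.50 with 0.0507.

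Clock (chromosome 5, 76209868 to 76304792, minus strand) encodes the partner with histone acetyltransferase activity. Its libraries spanned 130.8 to 153.4 CPM in the PTU mice and 133.6 to 156.7 CPM in the PTU+TH mice, so the ranges were nearly the same. The log2 fold change was -0.00 with a 95% interval from -0.19 to 0.19 (edgeR adjusted p = 0.998), which is a fold between 0.874 and 1.14. Its sign changed with the scaling and with single libraries.

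Npas2 (chromosome 1, 39193731 to 39363236, plus strand), whose product can replace CLOCK in the dimer, was at 64.6, 79.1, 85.2 and 81.9 CPM in PTU mice 9, 10, 11 and 12. In PTU+TH mice 13, 14, 15 and 16 it was at 80.5, 80.9, 93.1 and 97.7 CPM. Mice 15 and 16 were above all PTU mice, and mice 13 and 14 were within the PTU range. The log2 fold change was 0.18 (95% interval -0.05 to 0.41, edgeR adjusted p = 0.542). It was 0.11 without PTU mouse 9 and 0.06 when mice 15 and 16, which lacked Y-linked counts, were left out.

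Among the repressors, no member was called, and 3 of 4 had a negative log2 fold change. Per1 (chromosome 11, 69095217 to 69109960, plus strand), which is also a rapid target of activity signals, was at 21.5, 18.3, 27.0 and 26.1 CPM in the PTU mice and at 24.3, 18.5, 20.6 and 17.3 CPM in the PTU+TH mice, in order of mouse number. Its groups overlapped over most of their range (adjusted p = 0.665 by edgeR, log2 fold change -0.20 with 95% interval -0.52 to 0.12). The change was -0.12 without PTU mouse 11, -0.13 without PTU+TH mouse 16 and -0.12 without mice 15 and 16. It was larger, at -0.29, without PTU mouse 10 and, at -0.30, without PTU+TH mouse 13. Other rapid targets of activity are the 12 immediate early genes. Their sum was 82.1 to 100.7 CPM in the PTU mice and 77.6 to 111.1 CPM in the PTU+TH mice. Of the 11 tested, 0 were called by edgeR, beside 2.12% of all tested genes, and 5 had a positive and 6 a negative log2 fold change. At an unadjusted edgeR p under 0.05 there were 2, Nr4a1 and Egr2, beside 12.8% of all tested genes. Both were lower in PTU+TH, and they were named after their values were seen. Nr4a1, the highest of the tested genes, did not overlap (PTU 38.1 to 48.0 CPM, PTU+TH 31.8 to 35.0 CPM). Egr2 overlapped (PTU 1.09 to 2.22 CPM, PTU+TH 0.516 to 1.18 CPM).

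Per2 (chromosome 1, 91415982 to 91459324, minus strand) was at 45.8, 45.6, 45.7 and 57.3 CPM in the PTU mice and at 45.5, 46.3, 41.5 and 38.0 CPM in the PTU+TH mice. Mice 9, 10 and 11 were almost equal and mouse 12 stood above them, while PTU+TH mouse 14 lay among the PTU values. The log2 fold change was -0.18 (95% interval -0.41 to 0.05, edgeR adjusted p = 0.548), and it was -0.09 without PTU mouse 12 and -0.08 without mice 15 and 16.

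Cry1 (chromosome 10, 85131700 to 85185064, minus strand), the stronger and later repressor of the dimer, was at 18.3 to 23.3 CPM in the PTU mice and 20.2 to 25.1 CPM in the PTU+TH mice. The log2 fold change was 0.12 (95% interval -0.14 to 0.38, edgeR adjusted p = 0.788). It was 0.06 without PTU mouse 10, 0.07 without PTU+TH mouse 14 and 0.22 without mice 15 and 16. Cry2 (chromosome 2, 92403646 to 92434043, minus strand) was at 62.3, 53.0, 48.7 and 50.5 CPM in the PTU mice and at 50.8, 47.7, 47.7 and 44.4 CPM in the PTU+TH mice. PTU mouse 9 was highest, and PTU+TH mouse 13 lay within the PTU range (adjusted p = 0.529 by edgeR, log2 fold change -0.17 with 95% interval -0.38 to 0.04). Without mouse 9 the change was -0.09. Only 23% of the Cry2 body is free of another gene, the opposite-strand D930015M05Rik, which is listed at 0, so its counts are uncertain.

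Of the PAR bZIP factors, Dbp passed the test and Hlf and Tef did not. Dbp (chromosome 7, 45705088 to 45710203, plus strand), the family member known for the widest daily swing, was at 8.82, 8.69, 4.90 and 7.35 CPM in PTU mice 9, 10, 11 and 12. It was at 17.6, 15.3, 16.4 and 14.1 CPM in PTU+TH mice 13, 14, 15 and 16. The lowest treated library was 1.60 times the highest untreated one, and the spread was wider in PTU, where mouse 11 was low. The PTU mean of 7.44 ± 1.82 CPM compares with 15.9 ± 1.5 CPM in PTU+TH (n = 4 each, ± SD; adjusted p = 0.00639 by edgeR, log2 fold change 1.09 with SE 0.18). The 95% interval is a fold of 1.62 to 2.78.

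Dbp is the smallest of the 10 genes and had 99 to 444 counts per library. Its body is 85.6% free of other genes, and the rest is shared with Sphk2 on the opposite strand. Sphk2 was at 27.7 ± 2.71 CPM in the PTU mice and 31.9 ± 3.75 CPM in the PTU+TH mice (n = 4 each, ± SD; adjusted p = 0.509 by edgeR, log2 fold change 0.21). In the 6 libraries with Y-linked counts, the Dbp change was as large (log2 fold change 1.14), with an edgeR adjusted p of 0.102.

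Hlf (chromosome 11, 90336536 to 90390895, minus strand) was at 30.2, 28.3, 45.8 and 36.0 CPM in the PTU mice and at 43.3, 41.9, 53.5 and 46.4 CPM in the PTU+TH mice. PTU mouse 11 reached the PTU+TH range and the other 3 PTU mice lay below it. Hlf did not pass the test (adjusted p = 0.228 by edgeR, log2 fold change 0.40 with SE 0.14 and 95% interval 0.09 to 0.71). Without PTU mouse 11 the log2 fold change was 0.55 and the edgeR adjusted p 0.0432. With Y-linked counts as a covariate the change was 0.28 with an edgeR adjusted p of 0.698, and over the 19 alternatives the adjusted p ran from 0.0416 to 0.779.

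Tef (chromosome 15, 81802421 to 81826863, plus strand) was at 141.4, 129.5, 120.5 and 120.5 CPM in the PTU mice and at 136.2, 133.1, 143.7 and 133.7 CPM in the PTU+TH mice. All PTU+TH libraries fell between 133.1 and 143.7 CPM, and PTU mouse 9 was inside that range (adjusted p = 0.745 by edgeR, log2 fold change 0.09 with 95% interval -0.09 to 0.28). Without mouse 9 the change was 0.15 and did not pass. The interval allows a fold of at most 1.21 for Tef, below the lower bound of 1.62 for Dbp.

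**Figure D2:**
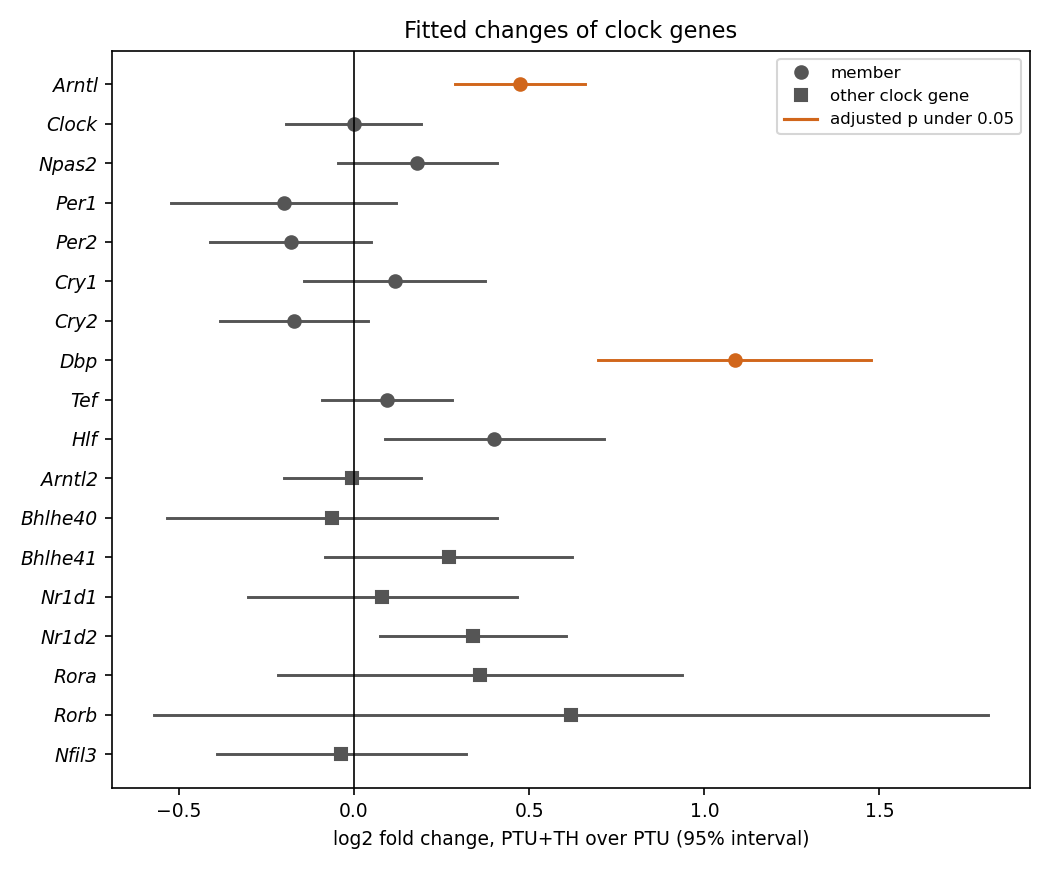
Log2 fold change of PTU+TH over PTU (x axis) with its 95% interval for the 10 members (circles) and the tested genes of 2 further clock lists (squares). Arntl at 0.47 and Dbp at 1.09 are coloured as passing an adjusted p of 0.05, and the interval of Rorb, from -0.57 to 1.81, is the widest.

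Ratios of members within a library do not depend on how libraries are scaled, and they are given as a description. Arntl and Dbp, the numerators below, already separated the groups, so a ratio to a member that changed little repeats their change. The ratio of Npas2, which was not called, to Clock overlapped between the groups. The log2 ratio of Arntl to Clock was -0.84, -0.82, -0.83 and -0.96 in PTU mice 9, 10, 11 and 12 and -0.37, -0.48, -0.43 and -0.28 in PTU+TH mice 13, 14, 15 and 16. The groups were apart, with a mean of -0.86 ± 0.07 in PTU and -0.39 ± 0.09 in PTU+TH (SD, n = 4 each). Arntl to Per2 went from 0.71 ± 0.19 to 1.36 ± 0.17 and also did not overlap. Arntl to Per1 went from 1.79 ± 0.28 to 2.46 ± 0.27, where PTU mouse 10 at 2.19 nearly met PTU+TH mouse 13 at 2.20. Dbp to Tef went from -4.14 ± 0.33 to -3.11 ± 0.12 without overlap. Dbp to Hlf went from -2.25 ± 0.70 to -1.54 ± 0.20 and overlapped narrowly. PTU+TH mouse 16 at -1.713 lay below PTU mouse 10 at -1.705, and PTU+TH mouse 15 was also at -1.705. Dbp to Per1 went from -1.66 ± 0.62 to -0.34 ± 0.09, and the 4 PTU+TH libraries lay within -0.46 to -0.28 against -2.46 to -1.08 in PTU.

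**Figure D3:**
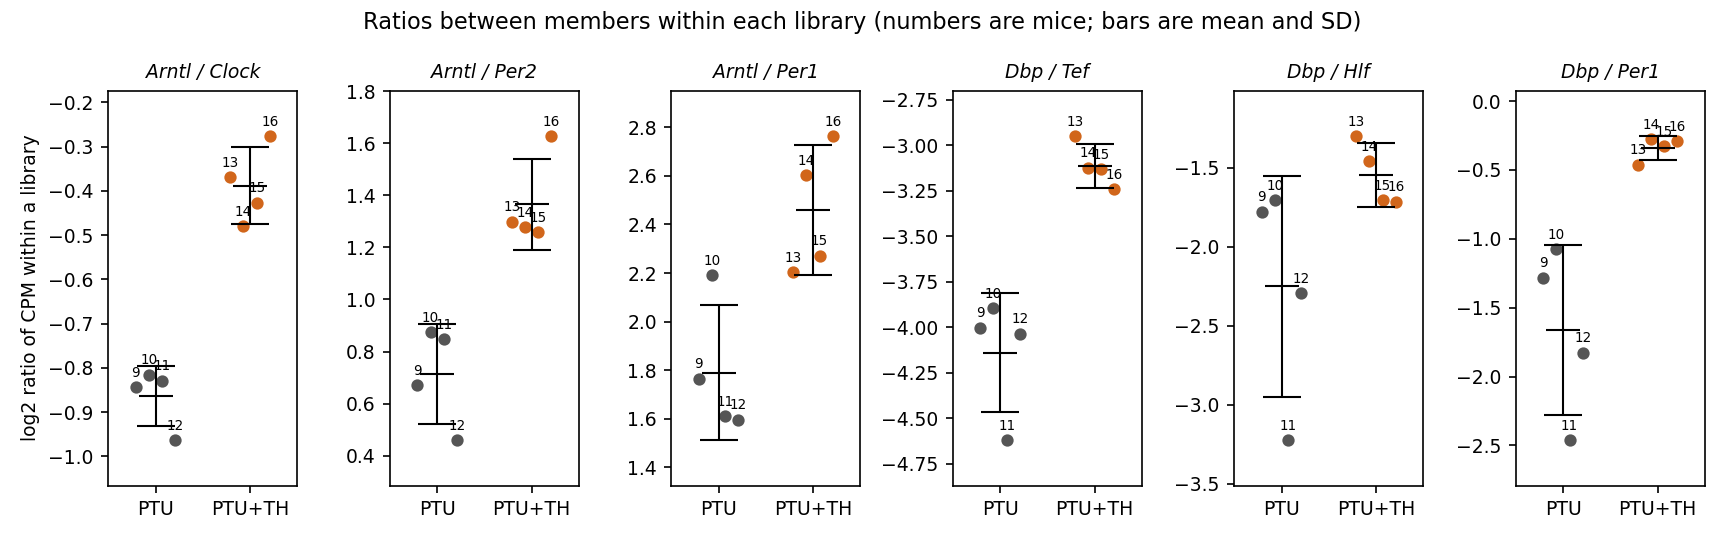
Log2 ratio of the CPM of 2 members within each library (y axis, with its own range in each panel) by group, with each point labelled by its mouse and bars for the mean and SD. The groups are apart for Arntl to Clock, Arntl to Per2, Dbp to Tef and Dbp to Per1, almost meet for Arntl to Per1, and overlap for Dbp to Hlf.

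The spread between mice of a group also differed among the members. The coefficient of variation in PTU was 24.5% for Dbp, 22.4% for Hlf and 17.5% for Per1, and 6.05% for Arntl, 6.65% for Clock and 7.74% for Tef. In PTU+TH it was 15.2% for Per1, the widest of the 10, 11.1% for Hlf and 9.45% for Dbp, and 6.94% for Arntl, 6.62% for Clock and 3.58% for Tef. Cry2 was at 11.2% in PTU and at 5.50% in PTU+TH, where it stood between Tef and Clock. The members with a narrow spread in both groups thus included 1 that rose, Arntl, and 2 that did not pass, Clock and Tef.

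Levels can be compared between genes only per length, and the sources used here do not say whether introns were counted. Per kb of gene body free of other genes, Tef stood at 5.28 ± 0.41 CPM in PTU, above Dbp at 1.70 ± 0.42, Clock at 1.60 ± 0.11 and Per1 at 1.57 ± 0.27 CPM (SD, n = 4). The last 3 did not differ beyond their spread. Per2 followed at 1.12 ± 0.13 CPM per kb, with libraries that overlapped those of Dbp and Per1, then Arntl at 0.76 ± 0.05, Hlf at 0.65 ± 0.14, Npas2 at 0.46 ± 0.05 and Cry1 at 0.39 ± 0.04, where the libraries of Hlf overlapped those of Arntl, and those of Npas2 overlapped those of Cry1. The 4 values ran from 0.52 to 0.84 for Hlf and from 0.38 to 0.50 for Npas2. Cry2, with 7.68 ± 0.86 CPM per kb, rests on the 6.98 kb of its body that is free. In PTU+TH, Dbp was at 3.62 ± 0.34 CPM per kb, above Clock, and Arntl was at 1.06 ± 0.07, next to Per2 at 0.99 ± 0.09. Per kb of exon the order in PTU differed, with Tef at 16.3 ± 1.26 and Npas2 at 16.2 ± 1.90 CPM at the top and Dbp at 2.49 ± 0.61 CPM at the bottom. The place of Dbp and Npas2 thus depends on the length used. Over protein-coding genes with no overlap and at least 100 counts, the Spearman correlation of total count was 0.39 with exon length and 0.30 with body length. Whether introns were counted was not tested.

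Genes with the pattern nearest to a called member were sought among the 12762 tested genes that averaged 1 CPM or more and have a gene name, leaving out provisional names such as Gm, Rik and accession-like symbols. Likeness was the root-mean-square difference of log2 CPM over the 8 libraries after centring each gene. Genes picked in this way share the group difference of the called member by choice. Their p-values below are therefore a description and no separate support for Arntl or Dbp. Nearest to Arntl were Acss2 (0.05), Ncoa1 (0.06) and Rmnd1 (0.07), where the median gene was at 0.32. Ncoa1, which encodes a nuclear receptor coactivator, averaged 252.5 ± 14.3 CPM with PTU alone and 368.5 ± 25.6 CPM with TH (n = 4 each, ± SD; adjusted p = 0.0139 by edgeR, log2 fold change 0.55). Acss2, an acetyl-CoA synthetase, averaged 46.2 ± 1.62 CPM with PTU alone and 65.4 ± 6.13 CPM with TH (n = 4 each, ± SD; adjusted p = 0.0103 by edgeR, log2 fold change 0.50). Nearest to Dbp were Chrna3 (0.17), Tigd3 (0.17) and Rgs10 (0.19), where the median gene was at 0.62. Rgs10, a regulator of G protein signalling, averaged 6.28 ± 1.32 CPM with PTU alone and 14.9 ± 2.22 CPM with TH, and Chrna3, a nicotinic receptor subunit, 3.88 ± 1.17 and 7.71 ± 1.36 CPM (n = 4 each, ± SD; adjusted p = 0.00228 and 0.0453 by edgeR). Tigd3 averaged 1.83 ± 0.66 CPM with PTU alone and 3.80 ± 0.59 CPM with TH and did not pass (n = 4 each, ± SD; adjusted p = 0.0776 by edgeR).

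Of 34 other clock pathway genes, 29 were tested and 0 were called by edgeR in either direction. At an unadjusted p under 0.05 there were 5, where 12.8% of all tested genes were. limma voom called 0 and DESeq2 called 1, beside 2.03% and 4.36% of all tested genes. Of the 29, 13 had a positive and 16 a negative log2 fold change, with a median of -0.00 beside -0.01 over all tested genes. In 2 of the 29, Prokr2 and Fbxl21, the groups did not overlap, both lower in PTU+TH, where 8.71% of all tested genes showed this in either direction and 4.03% in this one. These 2 genes, and Pdxk below, were named after their values were seen.

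The REV-ERB and ROR receptors and the D-box repressor Nfil3 form the arm that acts on Arntl and on D-boxes, and 4 of its 5 tested members had a positive log2 fold change. Nr1d2, which encodes REV-ERB beta, was at 61.2, 57.6, 54.6 and 41.5 CPM in the PTU mice and at 70.2, 75.0, 68.9 and 57.6 CPM in the PTU+TH mice (adjusted p = 0.232 by edgeR, log2 fold change 0.34 with 95% interval 0.07 to 0.60). Only PTU+TH mouse 16 lay within the PTU range. Nr1d1, for REV-ERB alpha, overlaps Thra on the opposite strand and is 85.5% free of it, with 8.66 to 15.2 CPM in the PTU mice and 11.1 to 13.9 CPM in the PTU+TH mice (adjusted p = 0.928 by edgeR, log2 fold change 0.08). Rora had the highest CPM of this arm, not scaled for length, and the longest gene body in it, 734461 bases. Its spread was wide, with 320.3 to 762.3 CPM in the PTU mice and 516.0 to 839.5 CPM in the PTU+TH mice (adjusted p = 0.665 by edgeR, log2 fold change 0.36). Rorb and Nfil3 were at log2 fold changes of 0.62 and -0.04 (adjusted p = 0.727 and 0.971 by edgeR).

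Among further genes of the core loop, Arntl2, the paralog of Arntl, was at 41.6 to 49.2 CPM in the PTU mice and 41.6 to 46.3 CPM in the PTU+TH mice (adjusted p = 0.994 by edgeR, log2 fold change -0.00 with 95% interval -0.20 to 0.19). The E-box repressors Bhlhe40 and Bhlhe41 were at log2 fold changes of -0.06 and 0.27 (adjusted p = 0.962 and 0.566 by edgeR). Per3 and Ciart lie wholly inside other annotated genes and are listed at 0 in every library, as are Usp2 and Wee1, and none of these was tested. All 1265 protein-coding genes with a single identifier that lie wholly inside another gene are listed at 0, so these zeros are not read as lack of expression.

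Of the 11 tested kinase and ubiquitin ligase genes, which set how long PER and CRY proteins last, 4 had a positive and 7 a negative log2 fold change, from -0.49 for Fbxl21, which encodes a CRY ligase, to 0.21 for Csnk2a1, a casein kinase subunit. Of the 10 tested accessory and output genes, 4 were positive and 6 negative. Prokr2, a receptor for the clock output peptide PROK2, was at 7.10, 7.15, 8.71 and 6.78 CPM in the PTU mice and at 2.87, 5.50, 2.54 and 5.33 CPM in the PTU+TH mice (adjusted p = 0.117 by edgeR, log2 fold change -0.87 with SE 0.25). It was the gene called by DESeq2 (adjusted p = 0.0279). Pdxk, which makes the active form of vitamin B6 and is a known PAR bZIP target, was at 54.8, 40.9, 35.9 and 43.7 CPM in the PTU mice and at 53.1, 55.5, 52.1 and 52.2 CPM in the PTU+TH mice. It did not pass (adjusted p = 0.328 by edgeR, log2 fold change 0.28). Without PTU mouse 9, its high PTU library, the edgeR adjusted p was 0.0373, and no other alternative called Pdxk.

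**Figure D4:**
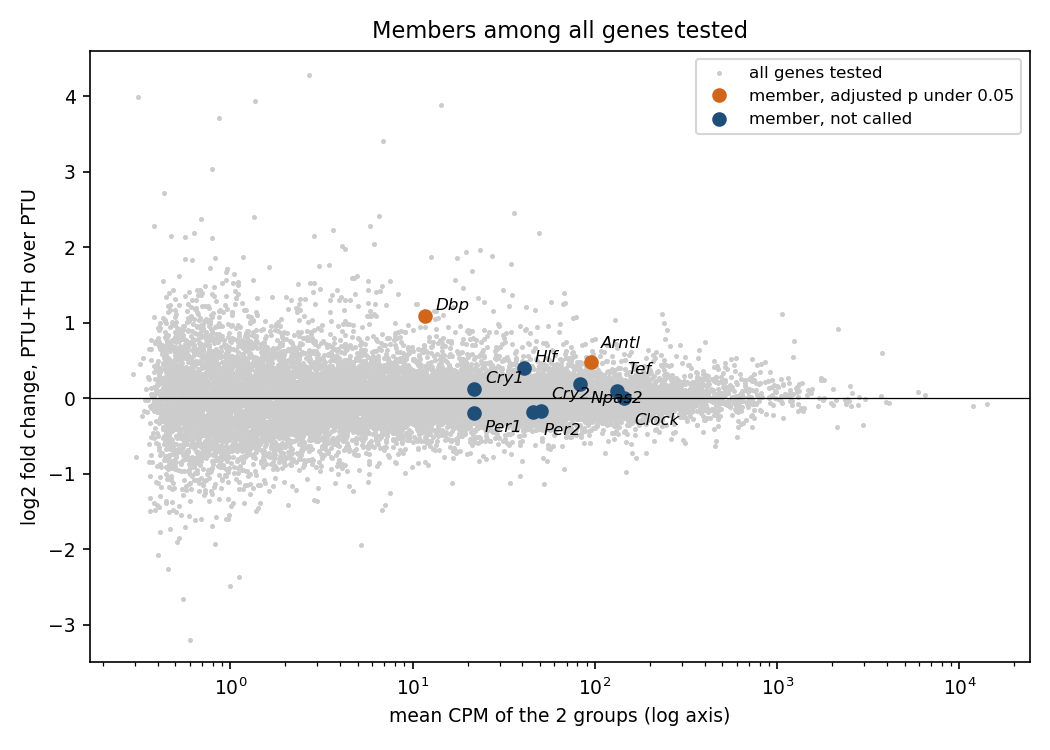
Log2 fold change of PTU+TH over PTU (y axis) against the mean CPM of both groups (log x axis) for the 17355 genes tested (grey) and the 10 members (coloured by call). Dbp, at a log2 fold change of 1.09, and Arntl, at 0.47, are the members called higher, and the other members lie between -0.20 and 0.40.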

How the data were processed

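The 8 libraries, 1 per mouse, were grouped by their titles, and where nothing else is stated p-values measure the spread between these mice. The authors deposited raw counts of reads per gene symbol. Per the submitters' processing notes, Bowtie2 2.5.3 and the builds mm10 and GRCm38 were used. The counting program, strand and use of introns are not given in the sources used here. Per the labels' protocols, cDNA was made with a SMART-Seq kit from sorted nuclei. All symbols matched GENCODE M21, which gave positions and overlaps. Each file held only gene rows. Same-group library pairs differed by a chi-square per degree of freedom of 8.38 to 72.6, so none was a copy.

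Counts were fitted with edgeR 4.0.16 in R 4.3.3 (filterByExpr, TMM scaling, robust quasi-likelihood test, group only), two-sided, with Benjamini-Hochberg adjustment over 17355 genes. CPM was computed here from the counts and TMM-scaled library sizes. SE and 95% intervals come from the quasi-likelihood F statistic. Ratios and patterns used CPM, with 0.5 added before log2 for patterns. Scripts were tested on simulated data. Alternatives were other scalings, DESeq2 1.42.0, limma 3.58.1 voom, filters, covariates, a surrogate variable from sva 3.50.0 and each library left out. The members and lists were chosen with earlier results of these data known. All members are named, as are called genes and every tested gene of the clock lists of 6 or fewer, and the 3 nearest patterns of each called member.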

Additional observations from a re-analysis of the deposited data

Results flagged for a closer look

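In the 78 sets of 4 libraries formed by the members and the tested pathway genes, 1 library stood far from the other 3 of its group, where chance gives about 5% of sets, or 3.9. PTU mouse 12 had 57.3 CPM of Per2, where mice 9, 10 and 11 had 45.6 to 45.8 CPM, a gap of 0.988 of the range. Without that mouse the log2 fold change of Per2 was -0.09 in place of -0.18, and Per2 was not called.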

How the results depend on the processing

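No paired analysis was possible because no mouse number occurs in both groups. Under 19 alternatives, Dbp was called in 18 and Arntl in 17, with log2 fold changes of 0.93 to 1.18 and 0.44 to 0.52, and both were called in all 8 leave-one-out fits (adjusted p of 0.00438 to 0.03 for Dbp and 0.0137 to 0.0453 for Arntl). With Y-linked counts as a covariate 1 member was called, and 0 without mice 15 and 16, where fewer mice entered. Hlf was called with the surrogate variable (log2 fold change 0.46, adjusted p = 0.0416) and without PTU mouse 11, so that 2 to 3 members were called in leave-one-out fits. The log2 fold change of Clock was 0.01 with upper quartile scaling, 0.001 without a filter, 0.003 at a mean CPM of at least 1, 0.019 with the excitatory covariate, 0.061 with the Y-linked covariate, 0.062 without mice 15 and 16 and 0.018 with the surrogate variable, and ran from -0.042 to 0.034 across leave-one-out fits. All members other than Clock kept their direction in all 19.

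Of the other pathway genes, DESeq2 called 1 and the surrogate variable 1 (Prokr2 in both), and leave-one-out fits called 0 to 1. Over all genes, 368 were called (258 higher, 110 lower), against 756 (464, 292) with DESeq2, 129 (106, 23) with Y-linked counts as a covariate, 58 (52, 6) without mice 15 and 16 and 955 (646, 309) with the surrogate variable, and 182 to 499 without 1 library, fewest without PTU+TH mouse 15. The count was also lower by more than 1.5 times without PTU mouse 12 (233) and without PTU+TH mice 13, 14 and 16 (238, 227 and 209). The cause was not tested where no smaller number of mice gives it. The difference in library totals ran from -1.566 to 0.875 M counts without 1 library. At 99 to 444 counts, Dbp is the member most limited by depth.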

Other observations

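The order of mice within a group was compared after the values were seen, and is given as values. The same pairs of mice were also closest to each other over all genes, with a chi-square per degree of freedom of 18.6 for mice 9 and 10, 8.89 for 11 and 12, 8.38 for 13 and 14 and 10.6 for 15 and 16, against 29.7 to 72.6 across pairs in PTU and 16.4 to 24.8 in PTU+TH. Mice 11 and 12 of PTU and mice 15 and 16 of PTU+TH had more Rora than the other pair of their group, with 762.3 and 603.8 against 320.3 and 379.6 CPM in PTU, and 760.3 and 839.5 against 536.8 and 516.0 CPM in PTU+TH. The same order held for Hlf (45.8 and 36.0 against 30.2 and 28.3 CPM, and 53.5 and 46.4 against 43.3 and 41.9 CPM) and for Npas2 (85.2 and 81.9 against 64.6 and 79.1 CPM, and 93.1 and 97.7 against 80.5 and 80.9 CPM). No other member shared it in both groups. Dbp was at 4.90 and 7.35 against 8.82 and 8.69 CPM in PTU. Cry2 had the reverse order, with 48.7 and 50.5 against 62.3 and 53.0 CPM in PTU. In PTU+TH its values were 47.70 and 44.4 against 50.8 and 47.72 CPM. In PTU+TH the same pairs differ in Y-linked counts, and in PTU they do not. The part of either in these values was not tested.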
